A study of Mus musculus with 27 samples.

Results

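The genes described here encode the receptors for the cytokines GM-CSF, IL-3, M-CSF and G-CSF, together with the ligand M-CSF. They were chosen by name, as the entries of a gene expression table named Csf2ra, Csf2rb, Csf2rb2, Il3ra, Csf1r, Csf1 or Csf3r, and they make up 7 of the 54532 genes in that table. All 7 passed the filter on low values and were among the 14630 genes tested.

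Bulk RNA was sequenced from tibialis anterior muscles of C57BL/6 mice, which the study's methods describe as 8-week-old males, after volumetric muscle loss (VML), a surgical injury that removes 40% of the muscle. The 27 samples comprised 5 labelled as controls, called uninjured here, and 5, 6, 6 and 5 samples taken 3, 7, 14 and 21 days after VML. Whether 1 or both legs were cut is in conflict, with unilateral in the public record and bilateral in the methods. The methods describe control muscle as healthy and free of injury. Neither source says whether each sample came from a different mouse, so p-values measure the spread between these samples. The model has no sham surgery among its labels, and a whole muscle holds the injured region together with what was left in place. Each sample held between 14376395 and 24436763 recovered reads (median 17398586).

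GM-CSF, IL-3 and IL-5 each bind an alpha chain of their own, which pairs with a shared beta chain that carries the signal through the kinase JAK2 to STAT5. Mice have a second beta chain, encoded by Csf2rb2, that serves IL-3 alone. M-CSF and IL-34 share the receptor tyrosine kinase CSF1R, on which the survival of most tissue macrophages depends, while G-CSF acts through CSF3R on neutrophils and their precursors. In injured muscle these receptors are known chiefly from the neutrophils, monocytes and macrophages that enter the tissue.

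Levels are given as deposited, in FPKM, which counts fragments relative to gene length and to the scaled number of reads. Group values listed without names run in time order, as uninjured, day 3, day 7, day 14, day 21. Differences are log2 fold changes between group means of log2(FPKM + 1), a scale that understates the change of genes with low values. A gene was called higher or lower where its limma p-value, two-sided and adjusted over all genes tested, was under 0.05, and the 4 comparisons with uninjured muscle share the same 5 uninjured samples. In bulk tissue, more cells of a type and more RNA per cell cannot be told apart.

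Over all genes tested, 9 of the 27 libraries were nearest the mean of a group other than their own. Day 3 replicate 5 was nearest day 7 and day 7 replicate 5 nearest day 3, and this pair, already known from earlier results of these data, was chosen to be left out together. The others were day 7 replicates 3 (nearest uninjured) and 6 (nearest day 21), day 14 replicates 1 (nearest day 7), 3 and 6 (nearest day 21), and day 21 replicates 3 and 5 (nearest day 14), each of which was left out singly. Day 7 replicate 5 held the highest day 7 value of all 7 genes, and day 3 replicate 5 the lowest day 3 value of Csf1r, Csf3r and Csf1. Values with and without the pair are given for some of the results below, and all others include it.

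All 7 genes were higher at day 3 than in uninjured muscle, where 23.4% of all genes tested were higher and 19.8% lower. At day 7, 6 of the 7 were higher, the exception being Csf1, against 15% of genes higher and 14.4% lower. At day 14, Csf2ra and Il3ra were higher, 2 of the 7, against 9.02% of genes higher and 11.3% lower. At day 21, limma called 0 of the 7, against 1.74% of genes higher and 1.69% lower. At an unadjusted p under 0.05, Csf2ra and Il3ra were the 2 genes higher at day 21, against 9.23% of all genes, and voom weights on the recovered reads also called 0. None of the 7 was lower than in uninjured muscle at any day by limma, with 0 at an unadjusted p under 0.05, against 23.1%, 19.9%, 18.5% and 10.6% of all genes at days 3, 7, 14 and 21.

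The median log2 fold change of the 7 genes was 1.93, 1.06, 0.53 and 0.34 at days 3, 7, 14 and 21, where the medians of all genes tested were 0.0121, 0.0282, 0.0196 and 0.0142. The day 7 median of the 7 genes rested on day 7 replicate 5 and was 0.62 without the pair of libraries, where day 3 gave 2.07 and the later days were unchanged. The deposited scaling differed between the groups, as the reads to which FPKM was referred were 0.747 to 0.819 times the sample total in uninjured samples and 1.14 to 1.48 times at day 3. Giving every sample the same FPKM sum (TPM) shifted the medians of all genes to 0.62, 0.58, 0.36 and 0.15, and with it the genes called at day 3 from 3417 higher and 2899 lower to 6942 higher and 324 lower. Under that scaling at day 7 the split went from 2189 higher and 2107 lower to 6372 higher and 210 lower, and at day 14 from 1320 and 1649 to 2096 and 117. At day 21 it went from 255 and 247 to 64 and 8. Quantile normalization gave a median of -0.12 at day 3, with 2774 genes higher and 3734 lower. At days 3, 7 and 14 all 7 genes had higher means than uninjured muscle under every scaling tried.

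**Figure D1:**
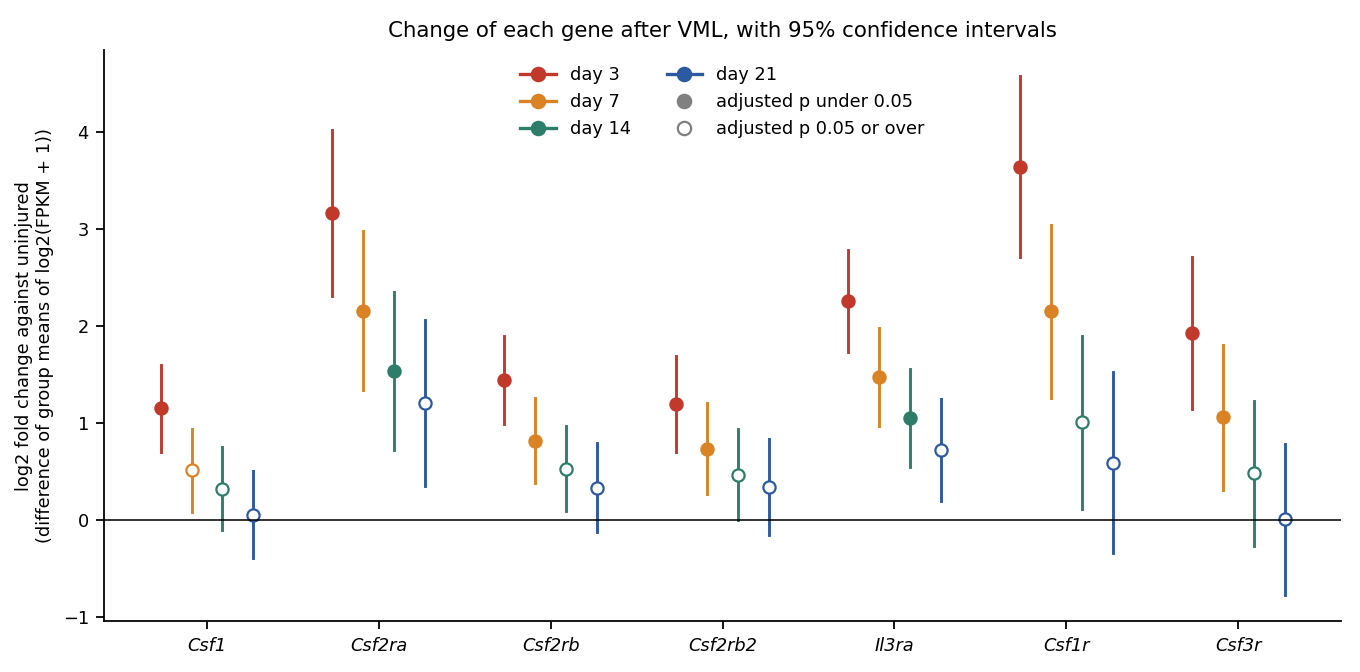
Log2 fold change of each gene against uninjured muscle at day 3, 7, 14 and 21 (vertical axis, difference of group means of log2(FPKM + 1)), with 95% confidence intervals as vertical lines and filled points where the adjusted p was under 0.05. The filled points number 7, 6, 2 and 0 from the earliest to the latest day.

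Without both libraries of the pair, 7, 4, 4 and 2 genes were called at days 3, 7, 14 and 21, against 43.1%, 23.6%, 24.4% and 4.99% of all genes in either direction. Csf2ra and Il3ra were then called at day 21, with adjusted p-values of 0.0344 and 0.0492 and unchanged fold changes. Csf2rb and Csf1r were called at day 14, with adjusted p-values of 0.0108 and 0.0107. Csf2rb2 and Csf3r were no longer called at day 7, with adjusted p-values of 0.0605 and 0.0566. Leaving out day 7 replicate 5 alone gave the same counts of 7, 4, 4 and 2. Neither library of the pair is in the uninjured, day 14 or day 21 group. Leaving them out therefore changes the p-values of these comparisons but not their fold changes. Both libraries were chosen for standing apart, so no conclusion is drawn from calls gained in this way at day 14 or day 21, here or below.

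Csf1 (ENSMUSG00000014599, chr3:107741048-107760469, minus strand) encodes M-CSF, the growth factor that keeps macrophages and their precursors alive. Its FPKM was 2.49, 2.01, 2.58, 2.15 and 1.73 in uninjured replicates 1 to 5 and 5.42, 5.07, 6.85, 9.50 and 4.41 at day 3. At day 7 the lowest, median and highest values were 2.22, 3.14 and 9.11, and at day 14 they were 2.12, 2.94 and 4.12. At day 21 the 5 samples held 2.14, 2.20, 2.0, 2.56 and 2.61. Every day 3 sample was above every uninjured sample, while the samples of day 7, day 14 and day 21 overlapped them. The group means were 2.19 ± 0.348 uninjured (SD, n = 5) and 6.25 ± 2.03 at day 3 (SD, n = 5), 2.85 times as high, with a log2 fold change of 1.15 ± 0.22 (SE) and an adjusted p of 0.000181. The later differences of 0.51, 0.32 and 0.05 did not pass the test, with adjusted p-values of 0.0672, 0.281 and 0.923. The day 7 mean of 3.92 became 2.88 without replicate 5, and Csf1 was called at day 7 when replicate 1 (adjusted p 0.0496) or replicate 2 (adjusted p 0.0345) was left out, and with TPM scaling (log2 fold change 1.19, adjusted p 0.00642).

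The other ligands of these receptors were near or at the limit of detection, apart from IL-34. Csf2, which encodes GM-CSF, had 7 reads at day 3, spread over 3 of the 5 samples, and 0 reads in the other 4 groups. Il3 had 0 reads in all 27 samples, and Csf3, which encodes G-CSF, had 10 reads at day 3 and 0 in the other groups. Csf2, Il3 and Csf3 did not pass the filter on low values, so differences in them were not tested. Il5 had 3, 16, 4, 12 and 5 reads in the 5 groups in time order, and its receptor gene Il5ra had at most 4 reads in any group. Il34, the second ligand of CSF1R, was the 1 tested gene of these 6 and was not called at any day. Its mean FPKM was 4.23, 6.14, 5.74, 5.09 and 5.33, with a log2 fold change of 0.41 at day 3 (limma adjusted p 0.109). Without the pair of libraries the day 3 mean was 5.14 and that fold change 0.23.

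Csf2ra (ENSMUSG00000059326, chr19:61224402-61228418, minus strand) encodes the alpha chain that binds GM-CSF. Its FPKM in the uninjured samples was 0.893, 0.691, 1.71, 0.571 and 1.11, from 13 to 37 reads each. At day 3 it was 20.2, 8.37, 23.9, 32.3 and 9.0. The lowest, median and highest values were 4.64, 5.41 and 29.1 at day 7 and 1.79, 4.93 and 11.5 at day 14, and the day 21 samples held 4.23, 5.28, 2.55, 1.94 and 4.51. At each of the 4 days the lowest sample was above the highest uninjured sample, and 2 samples of day 7, replicates 4 (9.73) and 5, and 1 of day 14, replicate 5 (11.5), lay within the range of day 3. Mean FPKM was 0.994 ± 0.447, 18.7 ± 10.2, 9.87 ± 9.62, 5.30 ± 3.34 and 3.70 ± 1.40 from uninjured to day 21 (SD, n = 5, 5, 6, 6 and 5).

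These Csf2ra means were 18.9, 9.93, 5.34 and 3.72 times the uninjured mean at days 3, 7, 14 and 21. The log2 fold changes of 3.16 ± 0.42, 2.16 ± 0.40 and 1.53 ± 0.40 (SE) at days 3, 7 and 14 had adjusted p-values of 3.2e-06, 0.000500 and 0.00899. The last call was lost with voom weights, where the adjusted p was 0.0757. At day 21 the log2 fold change of 1.21 had a 95% confidence interval from 0.35 to 2.06 and a limma adjusted p of 0.101. An exact permutation test of the 5 against 5 samples, two-sided and not adjusted over genes, gave its smallest possible p of 0.00794. Without day 7 replicate 5 the day 7 mean was 6.02 ± 2.12, or 6.06 times the uninjured mean. The day 21 difference was then called (adjusted p 0.0437), with the same fold change. No conclusion is drawn from that call, as the library left out is in neither group compared.

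Il3ra (ENSMUSG00000068758, chr14:14346275-14356011, plus strand) encodes the alpha chain that binds IL-3. Uninjured samples held 1.52, 0.685, 1.52, 0.767 and 1.08 FPKM, and day 3 samples 6.46, 8.51, 10.8, 11.2 and 8.70. The lowest, median and highest values were 2.72, 4.18 and 11.6 at day 7 and 2.16, 3.27 and 6.00 at day 14, and day 21 samples held 2.10, 3.52, 1.65, 2.38 and 2.81. As for Csf2ra, no sample taken after VML fell into the uninjured range, and day 7 replicate 5 was the 1 sample of day 7, 14 or 21 to reach the day 3 range. Mean FPKM was 1.11 ± 0.399, 9.13 ± 1.92, 5.32 ± 3.30, 3.49 ± 1.44 and 2.49 ± 0.713 from uninjured to day 21, or 8.19, 4.77, 3.13 and 2.23 times the uninjured mean. Log2 fold changes at days 3, 7 and 14 were 2.26, 1.47 and 1.05, with adjusted p-values of 5.6e-07, 0.000184 and 0.00459. At day 21 the log2 fold change was 0.72, with a limma adjusted p of 0.112. The exact permutation p, two-sided and not adjusted over genes, was 0.00794. Without day 7 replicate 5 the day 21 difference was called (limma adjusted p 0.0466), with the same fold change. That library is in neither group compared, so no conclusion is drawn from the call. An antisense gene, Gm48860, overlaps Il3ra with a mean FPKM of 0.0329, and the library did not mark strand.

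Csf2rb (ENSMUSG00000071713, chr15:78325752-78353847, plus strand) encodes the beta chain shared by the receptors for GM-CSF, IL-3 and IL-5. It was low in uninjured muscle, at 0.165, 0.0559, 0.0703, 0.0893 and 0.225 FPKM from 6 to 24 reads, and stood at 2.37, 1.45, 2.76, 2.42 and 1.46 at day 3. Lowest, median and highest values were 0.276, 0.816 and 3.49 at day 7 and 0.396, 0.656 and 0.833 at day 14, and the day 21 samples held 0.562, 0.382, 0.262, 0.412 and 0.443. Every sample taken after VML was above every uninjured sample, the closest being day 21 replicate 3 at 0.262 and uninjured replicate 5 at 0.225. Mean FPKM was 0.121 ± 0.0718, 2.09 ± 0.601, 1.18 ± 1.21, 0.622 ± 0.193 and 0.412 ± 0.108 from uninjured to day 21, or 17.3, 9.76, 5.14 and 3.40 times the uninjured mean. The log2 fold changes of 1.44 at day 3 (adjusted p 1.9e-05) and 0.81 at day 7 (adjusted p 0.00626) passed the test, although the latter was no longer called when only the 2 groups compared were fitted (adjusted p 0.0569). Those at day 14 (0.53, adjusted p 0.0787) and day 21 (0.33, adjusted p 0.421) did not. The exact permutation test, two-sided and not adjusted over genes, gave 0.00216 and 0.00794, its smallest possible values where groups do not overlap. Without day 7 replicate 5 the day 7 mean was 0.722, or 5.96 times the uninjured mean. The day 14 difference was then called (adjusted p 0.0125), with the same fold change. As the library left out is in neither group compared, no conclusion is drawn from that call.

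Csf2rb2 (ENSMUSG00000071714, chr15:78282507-78305721, minus strand), the gene of the beta chain that serves IL-3 alone, lies 20030 bases from Csf2rb. It held 0.174, 0.429, 0.216, 0.103 and 0.317 FPKM in uninjured samples and 2.10, 0.774, 2.93, 2.14 and 1.75 at day 3. Lowest, median and highest values were 0.285, 1.11 and 2.31 at day 7 and 0.293, 0.663 and 1.33 at day 14. Day 21 samples held 0.525, 0.681, 0.667, 0 and 1.23, with 0 reads in replicate 4, a library in which Csf2rb had 45 reads. Only at day 3 were all samples above all uninjured samples. Mean FPKM was 0.248 ± 0.128, 1.94 ± 0.780, 1.19 ± 0.804, 0.748 ± 0.376 and 0.620 ± 0.439 from uninjured to day 21. Log2 fold changes were 1.20 and 0.73 at days 3 and 7, with adjusted p-values of 0.000302 and 0.0186, and 0.46 and 0.34 at days 14 and 21, with adjusted p-values of 0.150 and 0.453. The day 7 call was lost without day 7 replicate 5 (adjusted p 0.0571), with quantile normalization (adjusted p 0.0515) and with voom weights (adjusted p 0.0733).

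The transcripts of these beta chain genes are near copies, so how reads were divided between them is uncertain. The first listed transcripts of Csf2rb (4764 bases) and Csf2rb2 (4740 bases) aligned over 4657 bases, of which 90.9% were identical. Windows of 150 bases found in both made up 2.30% of those of Csf2rb and 3.34% of those of Csf2rb2, and at 50 bases 12.3% and 18.4%. Summed over both genes, median FPKM was 0.339, 4.47, 1.93, 1.26 and 1.06 from uninjured to day 21. The log2 ratio of Csf2rb to Csf2rb2, with 0.1 added to each, averaged -0.63 in uninjured muscle and 0.17 at day 3. This difference of 0.80 had an exact permutation p, two-sided, of 0.0397, which became 0.159 after adjustment over the 4 time points. The later differences of 0.44, 0.48 and 0.51 had adjusted exact p-values of 0.352, 0.352 and 0.603, and the last rested on day 21 replicate 4, without which it was -0.11.

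Csf1r (ENSMUSG00000024621, chr18:61105572-61132149, plus strand) encodes the receptor for M-CSF and IL-34, carried by monocytes and macrophages. Uninjured samples held 1.09, 1.62, 0.593, 1.08 and 1.94 FPKM, and day 3 samples 32.4, 22.8, 39.0, 42.4 and 10.7. The lowest, median and highest values were 2.0, 8.00 and 48.0 at day 7 and 2.43, 3.32 and 5.97 at day 14, and day 21 samples held 2.06, 2.32, 2.48, 2.06 and 2.81. All samples taken after VML were above the uninjured range, by the narrowest margins at day 7 (2.0 in replicate 6, against 1.94 in uninjured replicate 5) and day 21 (2.06 in replicates 1 and 4). Within day 7 the values ran from 2.0 in replicate 6 to 48.0 in replicate 5, wider than the range of day 3.

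Mean FPKM of Csf1r was 1.27 ± 0.525 uninjured (SD, n = 5) and 29.5 ± 12.9 at day 3 (SD, n = 5), 23.3 times as high and the largest fold of means among the 7 genes at that day. At days 7, 14 and 21 it was 13.9 ± 17.1, 3.58 ± 1.29 and 2.34 ± 0.314 (SD, n = 6, 6 and 5), or 11, 2.83 and 1.85 times the uninjured mean. The log2 fold changes of 3.64 at day 3 (adjusted p 1.9e-06) and 2.15 at day 7 (adjusted p 0.00104) passed the test, while the 1.0 of day 14 (adjusted p 0.0999) and the 0.59 of day 21 (adjusted p 0.496) did not. Without replicate 5 the day 3 mean was 34.1 and the day 7 mean 7.13, or 27 and 5.63 times the uninjured mean. Without day 7 replicate 5 the day 14 difference was called (adjusted p 0.0238), with the same fold change. That library is in neither group compared, and no conclusion is drawn from the call. Hmgxb3 overlaps Csf1r on the opposite strand, with a mean FPKM of 1.21, close to the uninjured level of Csf1r, and reads of the overlap cannot be told apart by strand.

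Csf3r (ENSMUSG00000028859, chr4:126024550-126044440, plus strand) encodes the G-CSF receptor of the neutrophil lineage. It held 0.146, 0.209, 0, 0.270 and 0.227 FPKM in uninjured samples, from at most 13 reads, and 4.25, 2.22, 4.82, 4.82 and 1.99 at day 3. The lowest, median and highest values were 0.178, 0.942 and 9.84 at day 7 and 0.163, 0.636 and 1.33 at day 14, and day 21 samples held 0.361, 0.0416, 0.0496, 0.129 and 0.298. Day 3 lay clear of the uninjured samples, and at day 21 the samples were interspersed with them. Mean FPKM was 0.170 ± 0.105, 3.62 ± 1.40, 2.45 ± 3.73, 0.665 ± 0.396 and 0.176 ± 0.146 from uninjured to day 21. The log2 fold change was 1.93 at day 3 (adjusted p 0.000258) and 1.06 at day 7 (adjusted p 0.0306), where the mean was 14.4 times the uninjured mean with replicate 5 and 5.70 times without it. The day 7 call was lost without replicate 5 (adjusted p 0.0673) or replicate 4 (adjusted p 0.0743), and without uninjured replicate 1 (adjusted p 0.0539) or replicate 3 (adjusted p 0.0638). It was also lost with no filter (adjusted p 0.0745), quantile normalization (adjusted p 0.0569) and only the 2 groups compared (adjusted p 0.127). The day 14 value was 0.48 (adjusted p 0.360) and the day 21 value 0.00286, with a 95% confidence interval from -0.78 to 0.78.

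**Figure D2:**
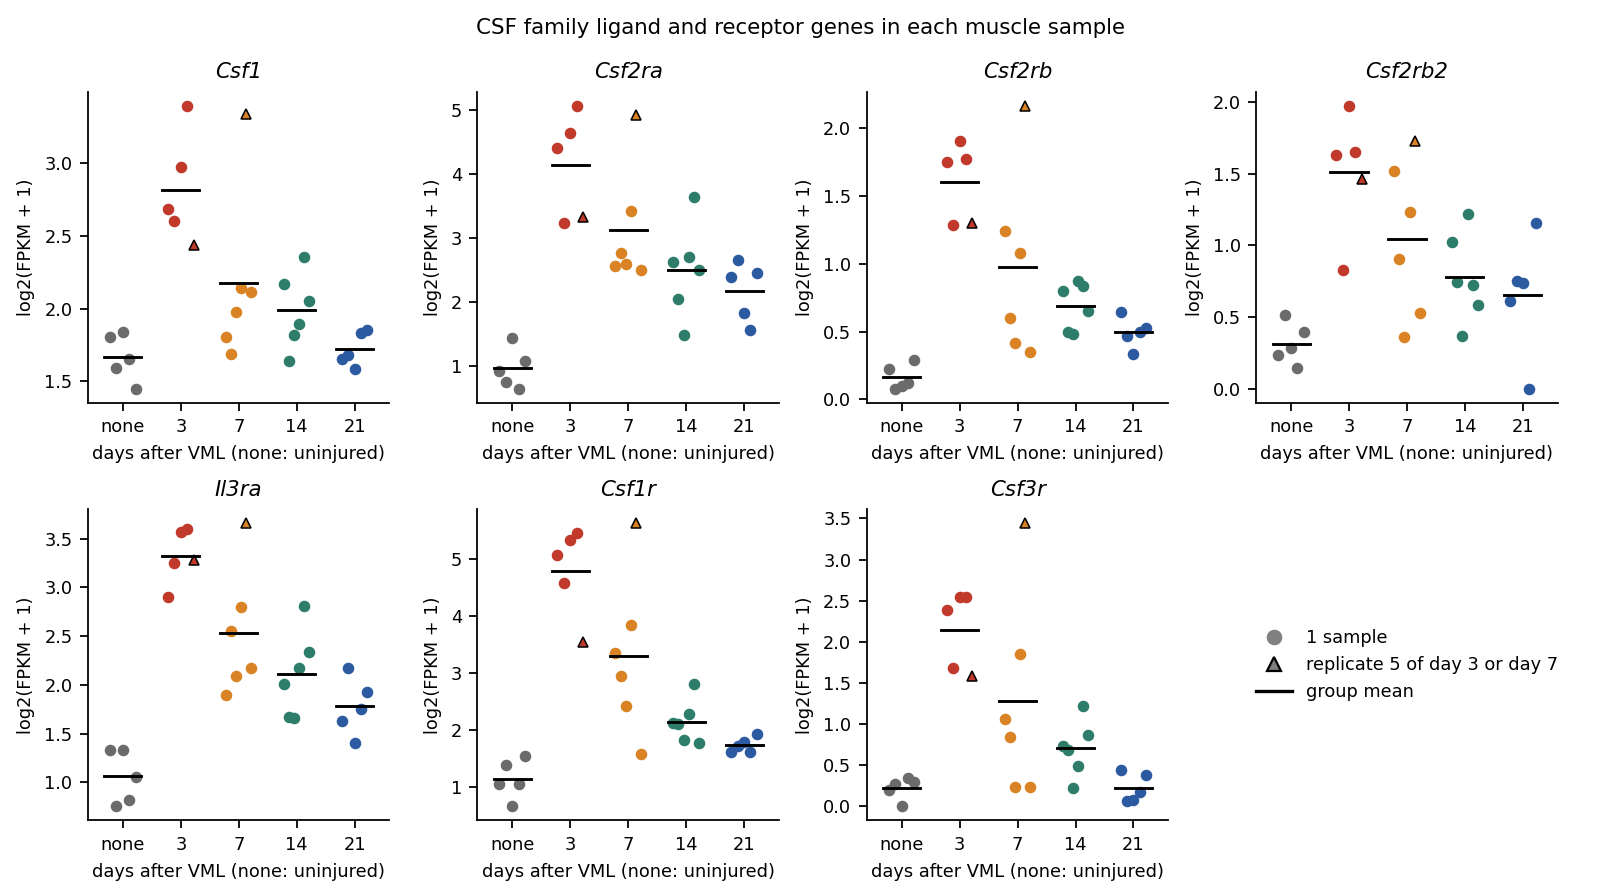
Level of each gene in each of the 27 muscle samples (vertical axis, log2(FPKM + 1)) by days after VML, with group means as horizontal lines and replicate 5 of day 3 and of day 7 as triangles. All day 3 samples sit above all uninjured samples for each of the 7 genes, and the highest day 7 sample is replicate 5 in every panel.

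Counted by overlap, all samples were above all uninjured samples for 7 genes at day 3, where this held for 19.8% of all genes tested. It held for 4 genes at each later day, in each case Csf2ra, Csf2rb, Il3ra and Csf1r, against 7.25%, 7.67% and 5.26% of all genes. Without the pair of libraries these counts were the same, against 23.7% of all genes at day 3 and 7.66% at day 7.

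Exact permutation tests of single genes, two-sided and not adjusted, gave 0.00794 for all 7 at day 3 against uninjured muscle. At day 7 they gave 0.00216 for Csf2ra and Il3ra, 0.00433 for Csf1r, 0.0130 for Csf2rb, 0.0216 for Csf2rb2, 0.0346 for Csf1 and 0.0584 for Csf3r. The day 14 permutation tests gave 0.00216 for Csf2rb, Il3ra and Csf1r, 0.00433 for Csf2ra, 0.0130 for Csf2rb2, 0.0173 for Csf3r and 0.0346 for Csf1. At day 21 the exact p was 0.00794 for Csf2ra, Csf2rb, Il3ra and Csf1r, 0.135 for Csf2rb2, 0.532 for Csf1 and 0.976 for Csf3r.

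The order of mean FPKM was the same for all 7 genes, with day 3 highest, then day 7, day 14, day 21 and uninjured. For Csf1 this order rested on day 7 replicate 5, without which its day 7 mean of 2.88 lay below the day 14 mean of 3.02. Day 21 and uninjured muscle lay close for Csf3r (0.176 and 0.170) and Csf1 (2.30 and 2.19). Their log2 difference fell below 0 for Csf3r without uninjured replicate 3 (-0.0527) or day 21 replicate 1 (-0.0521), and for Csf1 without uninjured replicate 5 (-0.00273). No pair of neighbours in that order passed the test for any gene. Between day 7 and day 3, 0 of the 7 were called by limma, against 0.0478% of all genes, and 6 were lower at an unadjusted p under 0.05, against 11.4% of all genes, the exception being Csf2rb2. Without the pair of libraries these 6 genes were called lower at day 7 than at day 3, against 15.1% of all genes in either direction. Their log2 differences ran from -0.94 for Csf2rb to -2.27 for Csf1r. Each of the pair was chosen for lying nearest the other's group, and leaving both out moves these days apart by that choice. No conclusion is drawn from these calls.

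Across longer intervals the fall was called. At day 14 all 7 genes were lower than at day 3, against 13.7% of all genes lower. At day 21 all 7 were again lower than at day 3, against 16.2%. With TPM scaling 4872 genes were lower and 174 higher at day 21 than at day 3, against 2377 lower with the deposited scaling. The difference from day 3 to day 21 was -3.05 for Csf1r (adjusted p 6.1e-05), -1.95 for Csf2ra (adjusted p 0.00125), -1.92 for Csf3r (adjusted p 0.000672) and -1.54 for Il3ra (adjusted p 0.000152), with -1.11, -1.10 and -0.86 for Csf2rb, Csf1 and Csf2rb2. The median was -1.54, where that of all genes was -0.00423. The median of all genes became -0.49 with TPM scaling and 0.08 with quantile normalization. Samples of day 7 lay wholly below those of day 3 for 0 of the 7 genes (0.130% of all genes). Without the pair of libraries this held for Csf2rb, Il3ra, Csf1r and Csf1 (4 of 7, against 10.7%). The pair was chosen for lying nearest each other's group, which itself separates these days, so no conclusion is drawn from that count. Samples of day 14 lay wholly below those of day 3 for 5 genes (7.92%) and samples of day 21 for 6 (12.2%). Without the pair the counts were again 5 and 6, against 13.5% and 17.4% of all genes.

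Later pairs of days gave 0 calls among the 7 genes by limma. This was against 0.335% of all genes between day 14 and day 7, with Csf1r the 1 gene lower at an unadjusted p under 0.05 (7.55% of all genes). It was against 2.25% between day 21 and day 7, with 6 of the 7 lower at an unadjusted p under 0.05 (12.2% of all genes), and against 0% between day 21 and day 14, with 0 at that threshold (6.21% of all genes in either direction). For this last pair of days the exact permutation test, two-sided and not adjusted, gave 0.0173 for Csf3r, 0.0260 for Csf1r and at least 0.0649 for the other 5 genes. The same permutation test between day 21 and day 7 gave 0.0281 for Csf1r, 0.0346 for Il3ra, 0.0433 for Csf2ra and at least 0.0563 for the other 4, and between day 14 and day 7 at least 0.0584 for all 7. Between day 7 and day 3 it gave 0.0411 for Il3ra and at least 0.0628 for the other 6. The differences between day 21 and day 7 were smaller without day 7 replicate 5, where Csf1r went from -1.56 to -1.09, Il3ra from -0.75 to -0.52, Csf2ra from -0.95 to -0.59, Csf3r from -1.05 to -0.62, Csf2rb from -0.48 to -0.24 and Csf1 from -0.46 to -0.22. For Csf1r the difference was called by limma without day 3 replicate 5 (adjusted p 0.0402, 2.73% of all genes called). It was not called without day 7 replicate 5 (adjusted p 0.111, 1.14%) or without both (adjusted p 0.0531, 1.44%).

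Ratios of FPKM within each sample, chosen after the values were seen, describe the balance between the receptors. The median ratio of Csf2ra to Csf1r was 0.570 uninjured, with a range from 0.427 to 2.88, and 0.622 at day 3, from 0.368 to 0.840. It was 0.796, 1.49 and 1.61 at days 7, 14 and 21, the last with a range from 0.945 to 2.27, above the samples of day 3. The day 21 range lay within the uninjured range, which reached 2.88 in replicate 3 (34 reads of Csf1r). Without that sample, left out after its value was seen, the highest uninjured ratio was 0.819, below every day 21 sample. The ratio of Il3ra to Csf1r at day 21, from 0.665 to 1.52, also lay within its uninjured range of 0.424 to 2.57. The median ratio of Csf1r to its ligand gene Csf1 was 0.502 (0.230 to 1.12), 4.49 (2.43 to 5.98), 3.38 (0.602 to 5.27), 1.22 (0.772 to 1.55) and 1.05 (0.804 to 1.24) from uninjured to day 21. These ratios were not tested.

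Of 20 genes of signalling downstream of these receptors, all tested, 13 were higher and 5 lower at day 3. The shares of all genes were 23.4% higher and 19.8% lower, and the median log2 fold change of the 20 was 0.65. Later, 11 were higher and 3 lower at day 7 (median 0.44), 2 and 2 a week on (median 0.24), and 0 and 1 at day 21 (median 0.0980). Of all genes 15% were higher and 14.4% lower at day 7, 9.02% and 11.3% at day 14, and 1.74% and 1.69% at day 21. These shares also apply to the counts of the lists and markers below. The higher genes at day 3 included Tyrobp, an adaptor of myeloid cells that joins CSF1R signalling (log2 fold change 5.13, adjusted p 5.6e-07), and the phosphatase gene Ptpn6 (3.24, adjusted p 3.6e-06). Tyrobp had mean FPKM of 3.09, 158, 66.1, 13.3 and 6.53 from uninjured to day 21, and the day 7 mean was 27.4 without replicate 5. Without the pair of libraries 19 of the 20 were tested. The higher and lower genes then numbered 12 and 5, 7 and 3, 7 and 3, and 0 and 2 at days 3, 7, 14 and 21. Of all genes 43.1%, 23.6%, 24.4% and 4.99% were called in either direction without the pair, also for the lists below.

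The central pair of the beta chain pathway differed in the other direction at day 3. Jak2, the kinase bound to the beta chain, was lower (log2 fold change -0.81, adjusted p 0.00270), with mean FPKM of 9.35 uninjured and 4.84 at day 3. Stat5b, a transcription factor that this kinase activates, was lower at days 3, 7 and 14, by log2 values of -1.26, -0.68 and -0.64 with adjusted p-values of 3.0e-06, 0.00291 and 0.00639, from a mean of 32.8 uninjured to 13.1, 20.5 and 20.8. Its partner Stat5a was not called at any day (0.21 at day 3, adjusted p 0.53). Ptpn11, the phosphatase SHP2, was lower at all 4 days, with -0.72 at day 3 (adjusted p 0.000139) and -0.60 at day 21 (adjusted p 0.0130). With TPM scaling Jak1, Sos1 and Ptpn11 at day 3 and Stat5b, Sos1 and Ptpn11 at day 7 had values above 0, at most 0.33 for Jak1, where the median of all genes was 0.62 at day 3 and 0.58 at day 7.

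Of 10 feedback and target genes, 9 were tested and Osm, which encodes oncostatin M, did not pass the filter. At day 3, 4 were higher and 0 lower by limma, with a median of 0.0924, against 23.4% of all genes higher and 19.8% lower. The 4 were Socs3 (log2 fold change 1.69, adjusted p 0.000152), Myc (1.51, adjusted p 0.000129), Socs1 (0.96, adjusted p 0.0136) and Bcl2l1 (0.75, adjusted p 0.00314). By limma 3, 2 and 0 were higher at days 7, 14 and 21, against 15%, 9.02% and 1.74% of all genes. The medians at these days were 0.11, 0.11 and 0.43, and at day 21 0 were lower. Without the pair of libraries the counts were the same, and the day 7 median was -0.0294. Cish, an inhibitor induced through STAT5, was not called against uninjured muscle at any day (-0.25 at day 3, adjusted p 0.608), and Pim1, Pim2, Mcl1 and Socs2 were not called either.

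Of 7 transcription factors of the myeloid lineage, 5, 5, 3 and 2 were higher at days 3, 7, 14 and 21. The shares of all genes higher were 23.4%, 15%, 9.02% and 1.74%, and the medians of the 7 were 1.64, 0.81, 0.93 and 0.51. Spi1, which encodes the myeloid regulator PU.1, had mean FPKM of 0.592, 22, 10, 2.52 and 1.33 from uninjured to day 21, or 4.31 at day 7 without replicate 5, with log2 fold changes of 3.66 (adjusted p 2.7e-06) and 2.15 (adjusted p 0.00139) at days 3 and 7 that passed the test. Cebpa was higher at day 3 (2.83, adjusted p 5.6e-07) and, like Spi1, called lower at day 21 than at day 3. Cebpb and Runx1 were higher at all 4 days, at day 21 by 0.91 (adjusted p 0.00360) and 1.68 (adjusted p 0.0188). Irf5 was lower at day 14 (-1.10, adjusted p 0.0430). Without the pair of libraries 5, 4, 4 and 2 were higher, as Irf8 was no longer called at day 7 and Spi1 was called at day 14, and Irf5 was lower at day 7 too.

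PU.1 binds sequences with a purine-rich core, and the promoters of the genes were searched for the letters GAGGAA on both strands, in windows of 300 bases from 250 before each start. RefSeq windows on GRCm38.p6 were found for 5 of the 7 genes, and none was found here for Csf2rb or Csf1r. Of all 32851 windows 28.3% held a match, and of the 12881 windows of tested genes 26.7% did. Csf3r, Csf2rb2 and Csf2ra held a match, while the windows of Csf1 and Il3ra did not hold these letters. The matches are shown so that they can be compared, each 5′ to 3′ on the strand of its gene, with the searched letters, or their complement where the match lies on the opposite strand, in capitals. That of Csf3r at chr4:126024561-126024590 (plus strand) begins at position -86 from the RefSeq start at 126024659, which lies inside the gene as listed in the table, that of Csf2rb2 at chr15:78305871-78305900 (minus strand) lies on the opposite strand at position -167, and that of Csf2ra at chr19:61228415-61228444 (minus strand) begins at position -14. Csf2ra has a further match at position -8, which is left in lower case in the stretch shown. Csf2rb2 has a further match on the opposite strand 29 bases after its start. A match of 6 letters is a description of the sequence and does not show that a factor binds there.
Csf3r: cctccttcctgaGAGGAAggggctgtctat
Csf2rb2: ctctgtgtctgcTTCCTCcagagaagtcag
Csf2ra: caacctgcagatGAGGAAgaggaagcggga

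Markers of monocytes and macrophages had their highest mean at day 3, apart from Cd163, whose mean was 1.61 at day 3 and 1.64 at day 7, or 1.80 and 1.32 without replicate 5. Of 13 markers, all tested, 13, 11, 3 and 0 were higher at days 3, 7, 14 and 21, and the most abundant in every group was Lyz2, with none at 0. Their summed FPKM was 34.3, 35.9, 31.8, 37.0 and 43.2 in uninjured samples and 2014, 1544, 2779, 3016 and 581 at day 3, with the 581 in replicate 5. At day 7 the sums were 373, 389, 206, 716, 2893 and 81.6, with the 2893 in replicate 5. At day 14 they were 137, 168, 71.9, 135, 177 and 96.4, and at day 21 81.7, 101, 95.3, 55.8 and 82.8, all above the uninjured samples. Without the pair of libraries 13, 10, 6 and 1 markers were higher. The part of these cells in the results for the 7 genes was not tested.

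Neutrophil markers were scarce. Of 11, only S100a8 and S100a9 passed the filter, and 2, 1, 0 and 0 were higher at days 3, 7, 14 and 21. The sums were 4.16, 2.09, 3.10, 3.41 and 0.229 uninjured and 16.7, 26.6, 20.4, 34.6 and 23.7 at day 3. At day 7 they were 19.3, 20.4, 2.01, 12.1, 90.1 and 5.14, with the 90.1 in replicate 5, and at day 14 they were 2.59, 1.79, 6.43, 5.36, 12 and 8.39. The day 21 sums were 3.29, 2.72, 1.58, 2.29 and 0. S100a8 was the most abundant at days 3 and 7 and S100a9 in the other groups, and Ly6g had 0 reads in every group but day 3. In uninjured muscle Mmp8, Camp, Ngp, Mpo and Elane were also at 0, and at day 21 Retnlg, Camp, Ngp, Mpo and Elane were. The part of neutrophils in the results for Csf3r was not tested.

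Other leukocyte markers were at low levels. Ptprc, carried by all leukocytes, was higher at day 3 (log2 fold change 1.11) and day 7 (0.65), with 0.0533, 0.0476, 0.0233, 0.0931 and 0.0522 FPKM uninjured and 1.45, 0.778, 1.84, 1.56 and 0.908 at day 3. Its day 7 values were 0.626, 0.399, 0.346, 0.775, 2.25 and 0.145, its day 14 values 0.469, 0.225, 0.122, 0.226, 0.475 and 0.232, and its day 21 values 0.155, 0.185, 0.205, 0.0654 and 0.142. Of 6 dendritic cell markers, 4 were tested and 2, Itgax and Cd209a, were higher at day 3 and day 7 and 1 at day 14, with Cd209a no longer called at day 7 without the pair of libraries. Their sums, led by Itgax at days 3 and 7 and by Zbtb46 in the other groups, spanned 1.41 to 2.14, 3.52 to 8.14, 1.97 to 5.37, 2.33 to 4.03 and 1.73 to 2.66 in the 5 groups from uninjured to day 21, with Flt3 at 0 in uninjured muscle. All 4 eosinophil markers were at 0 in uninjured muscle and their sum, led by Prg2, stayed at or under 1.42 in every sample, with Prg2 called at day 7. Sums of the 8 mast cell and basophil markers, led by Tpsb2 in uninjured muscle and at day 3 and by Mcpt4 later, ran from 1.58 to 6.34 over all samples, with Ms4a2 and Mcpt8 at 0 in uninjured muscle and 0 of 5 tested markers higher at any day by limma, while Tpsb2 was lower at day 14 (-0.85, adjusted p 0.0161) and Kit was called higher at day 14 without the pair of libraries. Sums of the 6 lymphocyte markers, led by Cd3e at day 7 and by Cd79a in the other groups, ran from 0.354 to 3.59, with Cd3d at 0 in uninjured muscle and 0 calls by limma for the 1 tested. The part of these cells in the results was not tested.

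The samples carried the markers of their labelled tissue. The summed FPKM of 5 muscle fibre genes, led by Acta1, was 44249, 39280, 44062, 39331 and 50676 in uninjured samples and 25094, 30610, 20348, 14047 and 29558 at day 3. It spanned 16620 to 42373, 18547 to 43486 and 26206 to 45892 in the later 3 groups, and 4, 3, 1 and 0 of the 5 were lower at days 3, 7, 14 and 21, which became 4, 0, 1 and 0 without the pair of libraries. With quantile normalization Acta1 at day 3 and Ckm at day 7 had values above 0, and with TPM scaling Acta1 at day 3 and Ttn at day 7 did.

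Genes of fibro-adipogenic progenitors, led by Dcn in uninjured muscle and by Col1a1 after VML, had sums that spanned 29.5 to 81.0, 239 to 455, 160 to 643, 83.2 to 312 and 63.5 to 115 in the 5 groups from uninjured to day 21, with 2, 2, 2 and 1 of 3 higher at days 3, 7, 14 and 21, or 2, 3, 2 and 1 without the pair of libraries. Those of endothelial cells, led by Cdh5, had sums that spanned 55.9 to 67.2, 37.3 to 83.6, 23.7 to 63.1, 43.3 to 111 and 51.0 to 70.7 in the 5 groups from uninjured to day 21, with 0 of 4 higher at any day and Kdr lower at every day. Tek was lower at day 3 (-0.57, adjusted p 0.0232) but not with TPM scaling, where its value was 0.07. The part of these tissues in the results was not tested.

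**Figure D3:**
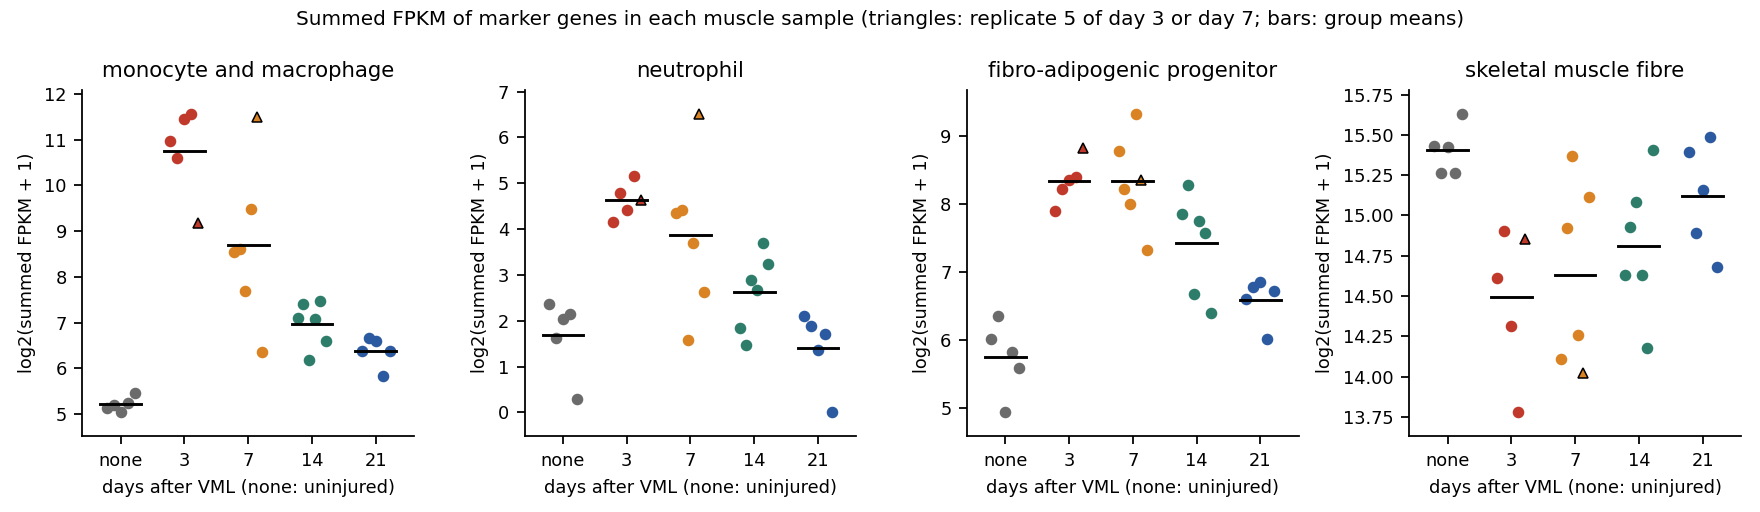
Summed FPKM of marker genes of 4 cell types in each of the 27 samples (vertical axis, log2(summed FPKM + 1)) by days after VML, with group means as horizontal lines and replicate 5 of day 3 and of day 7 as triangles. The macrophage sum is 581 in day 3 replicate 5 and 2893 in day 7 replicate 5, the lowest of day 3 and the highest of day 7.

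Among the 7 genes, Pearson correlations of log2(FPKM + 1) over the 27 samples, which share the same groups, ran from 0.71 between Csf2rb2 and Csf1 to 0.96 between Csf2rb and Csf1r. Once each group's mean was taken away, they ran from 0.36 between Csf2rb2 and Il3ra to 0.92 between Csf1r and Csf3r. All correlations here and below include day 7 replicate 5, the highest day 7 sample for all 7 genes. How far the values within groups rest on that library was not tested. With Spi1 the correlations over 27 samples ran from 0.84 for Csf2rb2 to 0.97 for Csf1r, and within groups from 0.62 for Csf2rb2 to 0.92 for Csf3r.

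The genes whose pattern over the 27 samples was most like each of the 7 are given as a description. Csf1r was most like Lyz2 (r = 0.989), Ms4a7 (0.988) and Grn (0.986), with 0.960, 0.962 and 0.950 within groups. Csf3r was most like Ms4a6b (0.972), Cd48 (0.971) and Ptprc (0.971), and Csf2rb was most like Myo5a (0.975), Il10ra (0.973) and Pld4 (0.970). Csf2ra was nearest Coro1a (0.961), Efhd2 (0.956) and Cap1 (0.953), which had 0.922, 0.845 and 0.875 within groups. Il3ra was nearest S100a11 (0.964), Pdlim4 (0.960) and Anxa2 (0.954), and Csf1 was nearest Sat1 (0.953), Arpc5 (0.951) and Fam111a (0.950). Csf2rb2 had the weakest likeness, to Slamf7 (0.918), Gpr162 (0.912) and Icam1 (0.904).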

How the data were processed

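Messenger RNA of 27 tibialis anterior samples was selected with poly-T beads, made into non-directional libraries and sequenced. The authors deposited 1 table of FPKM with gene lengths for 54532 genes, and the submitters' processing notes name HISAT2 2.0.5 and featureCounts 1.5.0-p3. The genome build and the treatment of reads that map to several genes are not given in the sources used here. Of the genes found in GENCODE M21 (54409), 98.3% had the same coordinates on GRCm38, with Csf2ra and Csf1r among those that differed. FPKM times gene length gave whole reads within 0.1 for 100% of genes under 1000 reads, and the scaling of FPKM departed from the sample totals by factors of 0.747 to 1.48, with group means of 0.782 in uninjured samples and 1.25 at day 3. Totals were 15469920 to 21014569 in uninjured samples.

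Groups and replicate numbers were read from sample titles. The filter kept genes that reached 0.5 FPKM in 5 or more samples, fitted as log2(FPKM + 1) with limma 3.58.1 in R 4.3.3, with 1 mean per group, all samples and a trend of the variance. The study's methods also name limma on log transformed values, after a normalization that they do not describe and that was not attempted here. All 10 pairs of groups were compared two-sided, with Benjamini-Hochberg adjustment within each comparison. Single genes were compared with exact permutation tests over samples, whose smallest p is 0.00794 for 5 against 5 and 0.00216 for 6 against 5. The code was tested on simulated data. Python 3.11.15, pandas 2.3.3, numpy 2.4.6, scipy 1.17.1, Biopython 1.88 and matplotlib 3.10.9 were used. Genes named are the 7 genes, fixed lists of pathway and marker genes, and the 3 genes most correlated with each of the 7. The signalling list is 1 gene shorter than planned, a change made after the results were known. The members and lists were chosen with earlier results of these data known. Alternatives were other pseudocounts, filters and scalings, no trend, blocks by replicate number or letter, fits of only the groups compared, voom weights on the recovered reads, summed paralogs, and samples left out.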

Additional observations from a re-analysis of the deposited data

Results flagged for a closer look

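In day 7 replicate 5, the values of 6 genes lay further above the other day 7 samples than Dixon's ratio test allows in a group of 6. They were 29.1 FPKM for Csf2ra, 3.49 for Csf2rb, 11.6 for Il3ra, 48.0 for Csf1r, 9.84 for Csf3r and 9.11 for Csf1. All 6 come from 1 library, so they are not separate events. Of 35 groups of values examined, these were the 6 with a sample so far out. The test marks about 1 in 20 groups only for independent, normally distributed values. The genes are correlated and the library was already known to stand apart, so the count cannot be compared with that rate. The summed macrophage markers of that library were 2893, the highest of day 7, and their part in these values was not tested.

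The change against uninjured muscle differed between day 21 and day 3 for all 7 genes, by the limma test of these days. In that test 16.2% of all genes tested were lower at day 21. With TPM scaling 4872 genes were lower, against 2377 with the deposited scaling. The log2 fold change at day 21 minus that at day 3 was -3.05 for Csf1r (adjusted p 6.1e-05), -1.95 for Csf2ra (adjusted p 0.00125), -1.92 for Csf3r (adjusted p 0.000672) and -1.54 for Il3ra (adjusted p 0.000152). It was -1.11 for Csf2rb (adjusted p 0.000737), -1.10 for Csf1 (adjusted p 0.000717) and -0.86 for Csf2rb2 (adjusted p 0.0103).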

How the results depend on the processing

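Of 1410 alternative values of the fold changes, 1353 kept their direction and side of the threshold, 35 newly passed it, 14 no longer did and 8 changed sign. Many of these values come from leaving out a sample of neither group compared, where the p-value can change but the fold change cannot. The count is therefore no measure of how stable the fold changes are. The counts of 7 genes called at day 3 and at day 21 against day 3 were the same in every alternative. At day 3 the share of all genes in either direction was 43.2%, and ran from 19.8% (no filter) to 56.4% (quality weights). For day 21 against day 3 it was 25.5%, and ran from 10.7% to 44.2% with the same settings. The 6 called at day 7 (29.4% of all genes) became 4 to 7, where the share ran from 11.1% (no filter) to 45.0% (TPM scaling). The 2 called at day 14 (20.3% of all genes in either direction) became 4 with a pseudocount of 0.1 (22.8%), with sample quality weights (29.6%), without day 7 replicate 5 (23.1%) and without day 3 and day 7 replicate 5 (24.4%), 6 with only the groups compared (25.6%), 1 with voom weights (18.6%), and 2 to 4 with each sample left out. Csf2rb was also called at day 14 with a pseudocount of 0.5 (adjusted p 0.0338) and, summed with Csf2rb2, with an adjusted p of 0.0466. The 0 called at day 21 (3.43%) became 2 with a pseudocount of 0.1 (4.42%), with sample quality weights (16.9%), without day 7 replicate 5 (4.59%) and without both libraries (4.99%), 4 with only the groups compared (10.1%), and 0 to 2 with each sample left out. Quality weights were chosen after seeing the data. Day 7 replicate 5 was known to stand apart and is in neither group compared at day 14 or day 21. No conclusion is drawn from the calls gained at these days without that library. Over all alternatives the log2 fold change at day 21 ran from 1.09 to 1.87 for Csf2ra and from 0.62 to 1.18 for Il3ra.

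With a replicate block by number, 4 genes were called at day 14 (25.2% of all genes) and 0 at day 21 (5.43%), and by letter 4 (25.3%) and 1 (8.43%). Deviations of same-numbered samples from their group means had a mean correlation of 0.0217 over 51 pairs, from -0.521 to 0.566, with 15 over 0.1. By letter the mean was 0.0296 over 49 pairs. A mean over all genes and pairs cannot show whether single samples share an animal, so pairing is left undecided.

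Among these alternatives of the changes against uninjured muscle, and of day 21 against day 3, the 7 genes changed sign only at day 21. Csf3r gave -0.00935 with a pseudocount of 0.1, -0.0530 with quantile normalization and -0.0527 to 0.0444 with each sample left out, and Csf1 gave -0.0121 with quantile normalization and -0.00273 to 0.0948 with each sample left out. The log2 ratio of Csf2rb to Csf2rb2, a difference of 0.51 with all samples, gave -0.00509 with a pseudocount of 1 and -0.115 to 0.797 with each sample left out, the lowest without day 21 replicate 4. The cause was not tested.

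Few reads limit the low values. Csf2rb had 6 to 24 reads per uninjured sample and Csf3r at most 13, and the ligands Csf2, Il3 and Csf3 were too scarce to compare. The 27 samples give no cell counts, and differences between cells of 1 type were not analysed here.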

Other observations

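Mean FPKM of Cebpb was 36.9, 56.2, 65.4, 73.5 and 69.7 in the 5 groups from uninjured to day 21, and that of Runx1 was 0.154, 4.05, 3.93, 4.14 and 2.88, with 4.67 at day 3 and 3.87 at day 7 when replicate 5 was left out. Neither was called between day 21 and day 3, with log2 differences of 0.30 for Cebpb (limma adjusted p 0.171) and -0.37 for Runx1 (limma adjusted p 0.519), and whether they differed from the 7 genes was not tested. Cish was called higher at day 21 than at day 7 (log2 difference 1.27, limma adjusted p 0.0485), with mean FPKM of 2.63, 2.24, 1.10, 2.29 and 4.61 in the same order. These genes were singled out after their values were seen.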
